A study of Mus musculus with 6 samples.

Results

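The genes described here are the fibroblast growth factor (FGF) ligands that the epiblast and the tail bud of the mouse embryo use, *Fgf3*, *Fgf4*, *Fgf5*, *Fgf8*, *Fgf15* and *Fgf17*, and the receptors *Fgfr1*, *Fgfr2*, *Fgfr3* and *Fgfr4*. They were chosen by name, 10 genes of the 35565 in the table of gene counts, and all 10 were found there. Bulk RNA sequencing measured them in mouse gastruloids, which are aggregates of embryonic stem cells (ESCs) that break symmetry and elongate in culture, collected at day 5. The Control (NT) group had 3 libraries and came from non-targeting cells, whose genotype the sample labels give as WT. The KD-1 group had 3 libraries and came from ESCs in which the ultra-conserved long non-coding RNA *T-UCstem1* was knocked down. Both groups derived from the line TBV2 129/SvP and received the GSK3 inhibitor CHIR99021 at 3 µM, which activates WNT signalling. KD-1 is 1 clone and each group comes from a single line, so a difference between the lines and the knockdown cannot be told apart. The *T-UCstem1* transcript was not analysed here.

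FGF ligands are secreted proteins that bind receptor tyrosine kinases at the cell surface together with heparan sulfate, a sugar chain of the extracellular matrix. The receptors pass the signal through the adaptor FRS2 and the RAS-ERK kinases, which switch on genes such as the *Etv* transcription factors and the Sprouty and DUSP inhibitors that damp the pathway. *Fgf4* is the ligand through which pluripotent cells push themselves out of the naive state, and *Fgf5* marks the epiblast once it has left that state. *Fgf8* and *Fgf17* are closely related ligands of the primitive streak, tail bud and brain organizers, *Fgf3* acts in the tail bud and hindbrain, and *Fgf15* is made by neural progenitors and, later, by the intestine as an endocrine factor. *Fgfr1* is the main receptor of the epiblast and its mesoderm, and *Fgfr2* acts in the primitive endoderm and in epithelia.

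Reference sequence upstream of the start was at hand for *Fgf3* and *Fgf4*, ligand genes that lie next to each other, and for *Fgf5*, a ligand gene on another chromosome, and is shown because the results turn on how these ligands differed between the groups. Each sequence is the 250 bases before the RefSeq transcription start, on the plus strand of GRCm38.p6, 5′ to 3′. They are chr7:144838362-144838611 for *Fgf3*, chr7:144861136-144861385 for *Fgf4* and chr5:98253934-98254183 for *Fgf5*. Capitals mark the only match to any of the motifs searched, in *Fgf3*.
Fgf3: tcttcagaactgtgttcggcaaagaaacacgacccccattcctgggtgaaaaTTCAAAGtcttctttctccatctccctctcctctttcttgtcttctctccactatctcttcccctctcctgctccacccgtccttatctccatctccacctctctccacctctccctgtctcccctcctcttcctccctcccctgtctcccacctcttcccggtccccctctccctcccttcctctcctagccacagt
Fgf4: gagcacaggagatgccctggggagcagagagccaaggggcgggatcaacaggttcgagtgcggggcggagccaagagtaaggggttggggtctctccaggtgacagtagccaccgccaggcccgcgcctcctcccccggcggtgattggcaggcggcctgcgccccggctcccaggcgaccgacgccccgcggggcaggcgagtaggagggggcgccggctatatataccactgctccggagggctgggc
Fgf5: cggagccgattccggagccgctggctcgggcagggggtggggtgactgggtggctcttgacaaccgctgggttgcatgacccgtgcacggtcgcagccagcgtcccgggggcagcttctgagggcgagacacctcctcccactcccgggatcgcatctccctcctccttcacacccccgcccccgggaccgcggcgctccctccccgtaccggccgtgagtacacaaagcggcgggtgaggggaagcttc

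The window searched ran from 250 bases before to 50 bases after each RefSeq start, and 6 of the 10 genes had an entry, *Fgf3*, *Fgf4*, *Fgf5*, *Fgfr2*, *Fgfr3* (with 2 starts) and *Fgfr4*. *Fgf3* held CTTTGAA, a letter string bound by TCF/LEF factors of the WNT pathway, on the minus strand at position -198 from the start, which reads TTCAAAG on the strand shown. A TCF/LEF string, CTTTGAA or CTTTGAT on either strand, was found in 8.65% of all 32851 promoters. *Fgf5* held TATAAA, but after its start, and so outside the sequence shown above, and 13.6% of promoters held it. The T-box string AGGTGTGA (1.28% of promoters) and the ETS string CCGGAAGT (3.89%) were in none of the 7 windows. The G+C content was 59.3% for *Fgf3*, 69.7% for *Fgf4*, 68.3% for *Fgf5*, 65.3% for *Fgfr4* and 69.7% and 73% for the starts of *Fgfr3*, against 43.7% for *Fgfr2* and a median of 52.7% over all promoters. The ratio of observed to expected CpG was 0.282 for *Fgfr2* and between 0.649 and 0.828 for the other windows, with a median of 0.384 over all promoters.

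Library totals ran from 20982249 to 85561026 estimated counts, and libraries are named by their depth within the group (shallowest, middle, deepest), because the columns carry no replicate number of the labels. Levels are read counts scaled by library size and TMM factor (CPM), and each list of values runs from the shallowest to the deepest library. A count of 3, taken as the limit of detection, was worth 0.0351 to 0.143 CPM. The middle Control library stood apart, with a chi-square per degree of freedom over genes of 36.3 and 36.5 against the other two Control libraries, beside 15.3 between those and 4.85 to 11.1 within KD-1. It held the highest Control value for 5 of the 10 genes. Of 15110 genes that passed the filter on low counts, 37.7% were called (19.7% with the higher level in KD-1 and 18.1% with the lower), where called means a Benjamini-Hochberg adjusted p under 0.05 in edgeR's quasi-likelihood test with a fold change over 1.5 or under 0.667. For 70.6% of them the 3 values of one group lay entirely above those of the other.

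Of the 10 genes, 9 passed the filter and 6 were called (66.7% of those tested, beside 37.7% of all genes). These were 4 ligands, higher in KD-1, and *Fgf8* and *Fgfr1*, lower in KD-1. *Fgf3*, *Fgfr2* and *Fgfr3* were tested and not called, and *Fgfr4* was under the filter. The median log2 fold change over the 9 genes was 0.72, beside -0.01 over all genes tested. The groups did not overlap for 8 of the 9 tested genes, beside the 70.6% of all genes. The summed level of the 6 ligands was 14.3 to 15.1 CPM in Control and 45.8 to 48.7 CPM in KD-1, while that of the 4 receptors was 163 to 165 CPM in Control and 106 to 111 CPM in KD-1. In bulk samples, fewer cells that express a gene and less RNA of it per cell cannot be told apart.

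**Figure D1:**
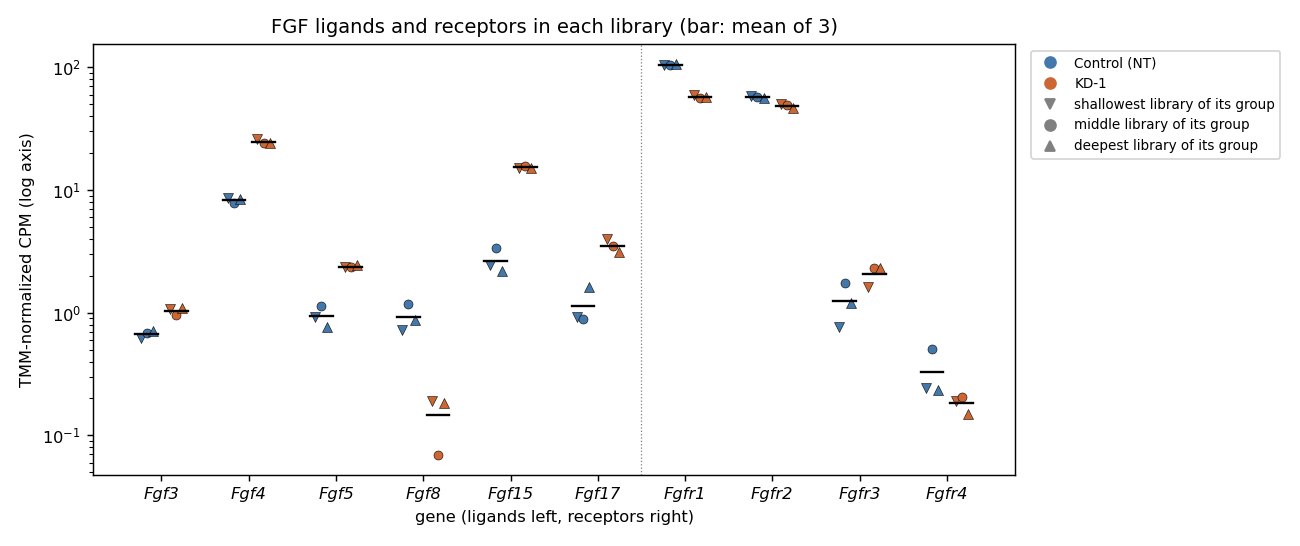
TMM-normalized CPM on a log axis for each of the 10 genes in each of the 6 libraries, Control (NT) in blue and KD-1 in orange, with the mean of 3 as a bar. *Fgf4*, *Fgf5*, *Fgf15* and *Fgf17* sit higher in every KD-1 library, *Fgf8* and *Fgfr1* lower, and *Fgfr3* is the gene whose groups overlap.

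*Fgf15* had the largest rise of the 9 genes tested. Its level was 2.46, 3.35 and 2.18 CPM in Control and 15.2, 15.6 and 15.0 CPM in KD-1. All KD-1 libraries lay close together and far above the Control libraries, of which the middle one was the highest. The mean went from 2.66 ± 0.607 to 15.3 ± 0.287 CPM (SD, n = 3 each), a 5.77-fold rise, which is 2.53 ± 0.15 (SE) on the log2 scale, with an edgeR adjusted p of 2.4e-06. The coefficient of variation was 22.8% in Control, where counting alone gives 11.1%, and 1.88% in KD-1, where counting alone gives 3.56%.

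*Fgf4* was the ligand of highest CPM in both groups. It measured 8.68, 7.90 and 8.50 CPM in Control and 25.9, 24.3 and 24.0 CPM in KD-1, so that the groups were about 3 times apart and neither spread by more than 4.87% (coefficient of variation). Its log2 fold change was 1.56 ± 0.08 (SE), with an edgeR adjusted p of 9e-07. In deposited counts this is 180, 267 and 471 against 1084, 1056 and 2084, which makes *Fgf4* the ligand whose change is known most closely.

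*Fgf5* and *Fgf17* rose from levels near 1 CPM. *Fgf5* was at 0.916, 1.12 and 0.758 CPM in Control and at 2.34, 2.37 and 2.43 CPM in KD-1 (log2 fold change 1.36 ± 0.22 SE, edgeR adjusted p = 0.00068). *Fgf17* was at 0.916, 0.888 and 1.61 CPM in Control and at 3.96, 3.49 and 3.13 CPM in KD-1 (log2 fold change 1.57 ± 0.25 SE, edgeR adjusted p = 0.00069). For both genes every KD-1 library was above every Control library. The deepest Control library was the high one for *Fgf17*, and without it the log2 fold change was the largest of those with 1 library left out, 1.96.

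*Fgf3*, the lowest of the ligands that were higher in KD-1, did not pass. It measured 0.627, 0.681 and 0.704 CPM in Control, from 13, 23 and 39 counts, and 1.07, 0.965 and 1.08 CPM in KD-1, from 45, 42 and 94 counts. The groups did not overlap and the estimate was a log2 fold change of 0.62 ± 0.26 (SE), with an edgeR adjusted p of 0.063. It passed under 2 of 14 alternative analyses, without composition normalization (adjusted p = 0.046) and with a minimum of 10 counts in every library (adjusted p = 0.024).

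*Fgf8* went the other way from the other ligands. Its level was 0.723, 1.18 and 0.866 CPM in Control and 0.191, 0.0690 and 0.184 CPM in KD-1, and the lowest Control value was more than 3 times the highest KD-1 value. The counts behind these values were 15, 40 and 48 in Control against 8, 3 and 16 in KD-1. Relative to the library total, the exact (Clopper-Pearson) 95% intervals reached down to 0.4 CPM in the lowest Control library and up to 0.383 in the highest KD-1 library, so that they did not meet. These intervals cover counting error only. The mean was 0.925 ± 0.236 CPM in Control and 0.148 ± 0.0685 CPM in KD-1 (SD, n = 3 each). On the log2 scale the fold change was -2.59 ± 0.45 (SE), with an edgeR adjusted p of 0.001. A minimum of 10 counts in every library removes *Fgf8* from the test, and in the other 13 alternatives it was called lower, with log2 fold changes from -2.80 to -2.28.

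*Fgfr1* had the highest level of the receptors in both groups and was the only receptor called. It was at 104, 104 and 107 CPM in Control and 59.3, 56.5 and 57.4 CPM in KD-1, with a spread of 2% to 2.43% within groups. The fall was 1.82-fold (log2 fold change -0.86 ± 0.05 SE, edgeR adjusted p = 2.5e-06), smaller than that of any ligand called and among the most closely measured. *Fgfr2* was at 58.7, 57.3 and 56.0 CPM in Control and 49.9, 49.7 and 46.2 CPM in KD-1. Its groups did not overlap and its log2 fold change of -0.24 ± 0.06 (SE) had an edgeR adjusted p of 0.0082, but a difference of 1.18-fold is under the threshold of 1.5-fold and it was not called.

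*Fgfr3* and *Fgfr4*, receptors best known in cartilage and in liver, had the lowest levels of the receptors. *Fgfr3* was at 0.772, 1.75 and 1.21 CPM in Control and 1.62, 2.30 and 2.33 CPM in KD-1, and the middle Control library lay above the shallowest KD-1 library. Its log2 fold change of 0.72 ± 0.30 (SE) did not pass (edgeR adjusted p = 0.061). Without the middle Control library it was 0.99 (adjusted p = 0.0043), and *Fgfr3* was then called higher. *Fgfr4* had 5, 17 and 13 counts in Control and 8, 9 and 13 in KD-1, or 0.241, 0.503 and 0.235 against 0.191, 0.207 and 0.150 CPM. The Control values lay above those of KD-1, yet with no filter on low counts the log2 fold change was -0.84 ± 0.63 (SE, edgeR adjusted p = 0.31), so no difference was detectable at this depth.

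**Figure D2:**
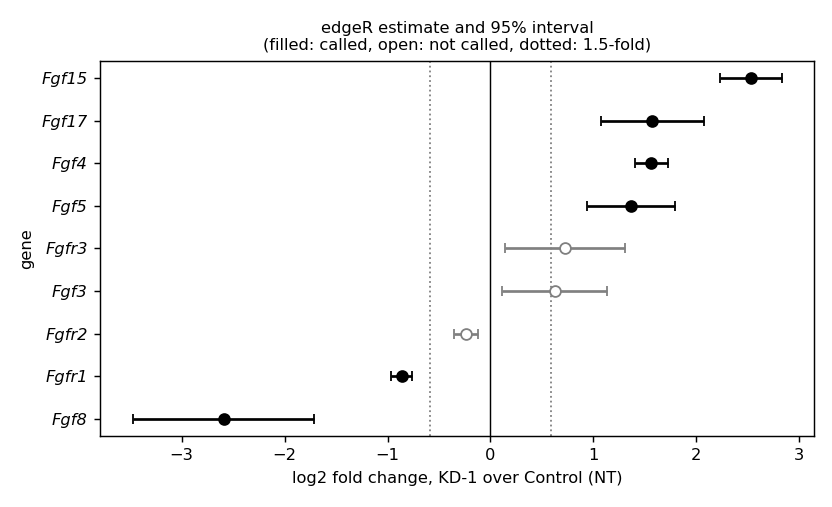
Log2 fold change of KD-1 over Control (NT) for the 9 genes tested, from edgeR with its 95% interval, filled where called and open where not, with dotted lines at 1.5-fold. *Fgf15* lies highest at 2.53 and *Fgf8* lowest at -2.59, and the intervals of *Fgf3* and *Fgfr3* cross the dotted line.

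The make-up of the ligands and receptors was compared within each library, after dividing CPM by the kilobases of merged exons of each gene (GENCODE vM39). Among the receptors, *Fgfr1* held 60.4%, 60.2% and 62.1% of the summed level in Control and 50.04%, 48.5% and 50.7% in KD-1, and *Fgfr2* held 37.5% ± 1.02 (SD, n = 3) in Control and 47.2% ± 1.11 in KD-1. The count ratio of *Fgfr1* to *Fgfr2* was 1.77, 1.81 and 1.92 in Control and 1.19, 1.14 and 1.24 in KD-1. The groups did not overlap for either measure, and the exact two-sided permutation test gave p = 0.1, the smallest that 3 libraries against 3 allow. *Fgfr3* held 1.04% ± 0.410 in Control and 2.61% ± 0.542 in KD-1, and *Fgfr4* under 1% in every library.

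Among the ligands, *Fgf4* held 48.2% ± 4.42 of the summed level in Control and 47.4% ± 0.379 in KD-1 (exact permutation p = 0.7), and *Fgf17* held 12.8% ± 4.40 and 13.2% ± 1.09 (exact permutation p = 0.9). The groups overlapped for both, and the sign of the difference changed when single libraries were left out. *Fgf15* went from 17.1% ± 3.48 to 32.8% ± 1.20, and *Fgf8* from 13.4% ± 2.88 to 0.718% ± 0.329. The difference of *Fgf8* was -12.7 percentage points, and -5.95 without scaling by length. The groups did not overlap for *Fgf15* or *Fgf8*, with p = 0.1, the smallest possible in the exact permutation test. *Fgf3* went from 4.35% ± 0.127 to 2.25% ± 0.155, a lower share beside a higher mean level, and *Fgf5* from 4.21% ± 0.777 to 3.59% ± 0.195 with groups that overlapped. The ratio of *Fgf17* to *Fgf8* counts, ligands of one subfamily, showed the widest shift of the count ratios computed. It went from 1.27, 0.75 and 1.85 in Control to 20.8, 50.7 and 17 in KD-1. The KD-1 ratios divide by *Fgf8* counts of 8, 3 and 16, of which 3 is the limit of detection, so their size is uncertain.

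**Figure D3:**
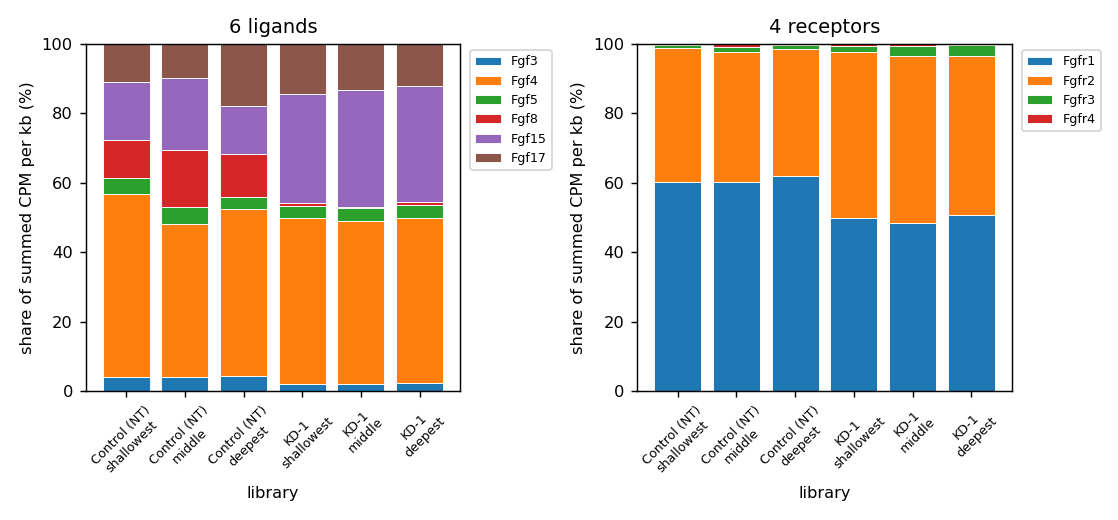
Share of each gene in the summed CPM per kilobase of merged exon, in percent, for the 6 ligands (left) and the 4 receptors (right) in each library. *Fgf15* takes 13.8% to 20.7% of the ligands in Control and 31.5% to 33.7% in KD-1, *Fgf8* is a thin band in KD-1, and *Fgfr1* and *Fgfr2* come close to equal shares in KD-1.

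The order of the levels per kilobase was *Fgfr1*, *Fgfr2* and *Fgf4* in Control, at 8.21, 5.06 and 2.45 CPM per kb of merged exon, with ranges that did not meet. *Fgf15*, *Fgf8* and *Fgf17* followed at 0.871, 0.685 and 0.652 CPM per kb, and neighbours in that order overlapped in range. *Fgf3* (0.221), *Fgf5* (0.214), *Fgfr3* (0.141) and *Fgfr4* (0.0738 CPM per kb) came last, each overlapping the next. In KD-1 the order was *Fgf4* (7.22), *Fgf15* (5.00), *Fgfr1* (4.52), *Fgfr2* (4.29), *Fgf17* (2.02), *Fgf5* (0.546), *Fgf3* (0.343), *Fgfr3* (0.236), *Fgf8* (0.110) and *Fgfr4* (0.0412 CPM per kb), with no overlap between neighbours. The top of this order depends on the length used, since the receptors have many transcripts, 29 for *Fgfr1* and 48 for *Fgfr2*. With the longest transcript as the length, *Fgfr1* came first at 9.39, *Fgfr2* and *Fgf15* followed at 8.61 and 8.44 with ranges that overlapped, and *Fgf4* came after them at 7.75 CPM per kb.

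*Fgf3*, *Fgf4* and *Fgf15* are neighbours on chromosome 7. On GRCm39 their gene models span 144391599 to 144454690, 63.1 kb, all on the plus strand, with *Fgf3* at 144391599 to 144398173, *Fgf4* at 144401104 to 144418985 and *Fgf15* at 144450268 to 144454690. The starts of *Fgf3* and *Fgf4* lie closer together in these gene models than in RefSeq. Distances between them here are therefore not those between the starts of the sequences shown above. *Ccnd1*, the gene of cyclin D1, follows at 144483668 to 144493662 and rose from 172 ± 7.13 to 405 ± 17.1 CPM (SD, n = 3 each; log2 fold change 1.24 ± 0.06 SE). Of the genes of this neighbourhood, *Fgf4*, *Fgf15* and *Ccnd1* were thus called higher. *LTO1*, whose gene model on the other strand overlaps the end of that of *Ccnd1* so that reads there are uncertain, had a log2 fold change of -0.09 ± 0.09 (SE), and *Ano1*, whose start lies at -85888 bases from that of *Fgf3*, one of 0.25 ± 0.35 (SE), and neither was called. The size of the difference was not shared within the block, as the count ratio of *Fgf15* to *Fgf4* was 0.283, 0.423 and 0.257 in Control and 0.589, 0.642 and 0.626 in KD-1 (exact permutation p = 0.1, the smallest possible).

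**Figure D4:**
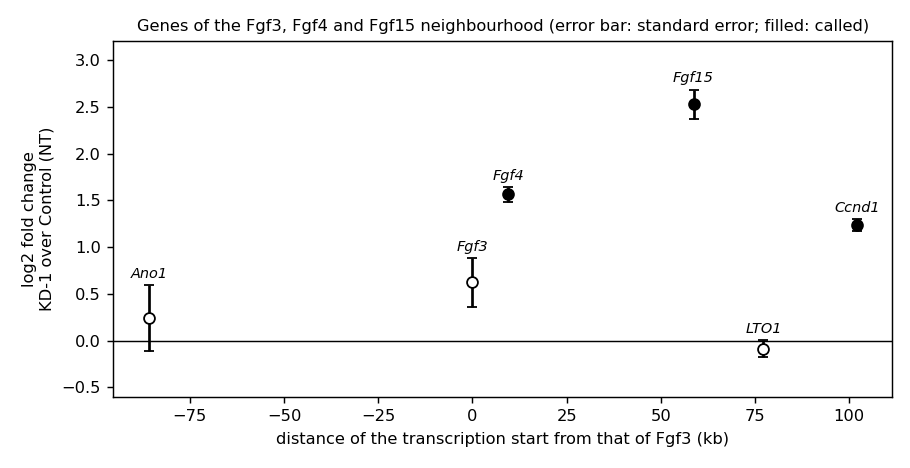
Log2 fold change of KD-1 over Control (NT), with its standard error, against the distance in kilobases of each gene's start from that of *Fgf3*, filled where called. Starts are those of the gene models on GRCm39. *Fgf4* (1.56), *Fgf15* (2.53) and *Ccnd1* (1.24) are called higher, while *Fgf3*, *LTO1* and *Ano1* are not called.

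The other FGF genes stand apart on the chromosomes (GRCm39), *Fgf5* at 98401780 to 98452320 and *Fgfr3* at 33879018 to 33894412 of chromosome 5, *Fgf8* at 45725237 to 45731354 of chromosome 19, *Fgf17* at 70873643 to 70879763 of chromosome 14, *Fgfr1* at 26003670 to 26066824 of chromosome 8 and *Fgfr4* at 55300352 to 55316572 of chromosome 13. *Fgfr2* is annotated from 129763471 to 132725079 of chromosome 7, a span that includes transcripts running on into *Ctbp2*, so its merged exon length is uncertain. Within 200 kb of the starts of the 10 genes there were 41 other protein-coding genes, of which 37 were tested, 5 were called higher and 6 lower (29.7%, beside 37.7% of all genes). The start used for *Fgfr2* is that of its read-through transcripts, so the 2 genes counted for it, *Ctbp2* and *Zranb1*, neither of them called, are not neighbours of its RefSeq start. Chosen after their values were seen, examples were *Dmtn*, whose start lies at -6152 bases from that of *Fgf17* and which rose by a log2 fold change of 2.22 ± 0.11 (SE), and *Prdm8*, at -86723 bases from *Fgf5*, which rose by 2.26 ± 0.19 (SE). The genes within 200 kb of *Fgf8* were also picked with their values known. *Fbxw4*, *Poll* and *Dpcd* were called lower, with log2 fold changes of -1.37, -1.07 and -0.63. *Npm3*, whose start is 6676 bases away, had a log2 fold change of 0.16 ± 0.07 (SE) and was not called. *Oga* (0.21) and *Kcnip2* (-0.15) were not called either.

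Of the remaining 12 secreted FGF ligands, 7 passed the filter, 2 were called higher and 3 lower (71.4%, beside 37.7% of all genes). *Fgf1*, a ligand that binds all of the receptors, was at 0.675, 0.622 and 0.596 CPM in Control and 14.5, 15.2 and 15.3 CPM in KD-1. Its log2 fold change was 4.59 ± 0.13 (SE), larger than that of any of the 6 ligands above. *Fgf9*, *Fgf18* and *Fgf10*, ligands of mesenchyme and of the limb and lung, were called lower, from Control means of 3.24, 2.39 and 2.37 CPM. In KD-1 the mean was 0.504 CPM for *Fgf9* and 0.529 CPM for *Fgf18*, and *Fgf10* was at 1.24, 1.08 and 0.979 CPM. *Fgf23*, a hormone of bone that is outside the naming rule, was the other called higher, at 0.193, 0 and 0.0541 CPM in Control and 1.29, 1.66 and 1.39 CPM in KD-1. *Fgf16* had no count in any library, which in the shallowest allows up to 0.143 CPM. Of the FGF homologues that stay inside the cell, 3 were tested and *Fgf13* was called higher (0.74), a call that was lost without the middle Control library (0.53). With the 6 ligands above, 6 of the 13 ligands tested were called higher and 4 lower, beside 19.7% and 18.1% of all genes. In the subfamily of *Fgf8*, *Fgf17* and *Fgf18* the members went in opposite directions, and their summed level was 3.81 to 5.15 CPM in Control and 3.75 to 4.82 CPM in KD-1. The subfamily of *Fgf4*, *Fgf5* and *Fgf6* went from 9.06 to 9.60 CPM in Control up to 26.4 to 28.2 CPM in KD-1.

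Of 11 co-receptors and receptor modulators tested, genes that act with the receptors at the cell surface, 3 were called higher and 7 lower. That is 90.9% called, beside 37.7% of all genes. *Klb*, a co-receptor for the endocrine ligand *Fgf15*, was at 1.98, 2.46 and 1.82 CPM in Control and 0.191, 0.0460 and 0.0921 CPM in KD-1 (log2 fold change -4.26 ± 0.42 SE). *Nrp1* (-3.46), *Flrt2* (-2.93), *Flrt3* (-1.63) and the decoy receptor *Fgfrl1* (-1.28) also fell, *Flrt3* from 71.8 to 23.1 CPM. *Fgfbp3* (1.47) and *Fgfbp1* (1.14), which release FGFs from the matrix, and the membrane inhibitor *Il17rd* (0.89) rose. Of 22 heparan sulfate genes tested, 3 were called higher and 10 lower (59.1%, beside 37.7% of all genes). Glypicans went both ways, *Gpc3* from 219 to 47.2 CPM (log2 fold change -2.22 ± 0.06 SE), *Gpc6* by -1.52 and *Gpc2* by -1.18, and *Gpc4* from 3.38 to 13.6 CPM (1.99 ± 0.13 SE). *Sdc4*, a syndecan, and *Hs6st1*, a sulfotransferase that acts on the chain, rose by log2 fold changes of 1.51 and 1.29.

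Inside the cell, 5 of 25 adaptors and RAS-ERK core genes tested were called (20%, beside 37.7% of all genes), all of them lower (18.1% of all genes were). They were *Map2k2* (-1.14), *Rps6ka3* (-0.94), *Plcg1* (-0.80), *Mapk3* (-0.80) and *Shc1* (-0.59). *Frs2*, the adaptor next to the receptors, was at 39.6, 35.4 and 40.6 CPM in Control and 47.5, 46.0 and 45.1 CPM in KD-1, with a log2 fold change of 0.26 that was not called.

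The negative regulators of the pathway include Sprouty and DUSP genes that ERK activity induces. Of 14 tested, 3 were called higher and 5 lower, beside 19.7% and 18.1% of all genes. *Spry4* rose from 7.01 to 19.1 CPM (log2 fold change 1.44 ± 0.12 SE), *Spred1* by 0.92 and *Cbl* by 0.60. *Dusp6*, a phosphatase of ERK, was at 108, 119 and 110 CPM in Control and 61.1, 63.8 and 62.3 CPM in KD-1 (-0.85 ± 0.06 SE). *Dusp5* (-2.66), *Dusp7* (-1.03), *Dusp14* (-0.88) and *Spry1* (-0.84) fell as well, and *Spry2* had a log2 fold change of -0.36 ± 0.09 (SE) and was not called. The call of *Cbl* was lost without the middle Control library (0.42) and without the deepest KD-1 library (adjusted p = 0.03, log2 fold change 0.58, under the fold threshold).

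Of 10 genes tested that respond to ERK, 5 were called higher and 3 lower (80%, beside 37.7% of all genes). *Etv4* and *Etv5*, paralogous transcription factors of FGF signalling, went in opposite directions. *Etv4* was at 60.5, 79.2 and 67.3 CPM in Control and 30.8, 30.3 and 30.4 CPM in KD-1 (log2 fold change -1.18 ± 0.10 SE), and *Etv5* was at 156, 154 and 158 CPM in Control and 312, 310 and 296 CPM in KD-1 (0.97 ± 0.05 SE). *Egr1* (1.51), *Ccnd1* (1.24), *Ier3* (0.96) and *Fos* (0.84) rose, and *Phlda1* (-3.46) and *Myc* (-2.35) fell. Among 5 regulators of splicing, *Esrp1* rose from 5.83 to 50.5 CPM (3.12 ± 0.08 SE) and *Esrp2* by 1.72 ± 0.18 (SE). The ESRP proteins select the epithelial isoforms of *Fgfr1* to *Fgfr3*, and counts summed to genes hold no value for isoforms. Over all the pathway genes outside the 10, 97 of 107 listed were tested, 19 were called higher and 33 lower (53.6%), with a median log2 fold change of -0.21. Over all genes tested, 37.7% were called, 19.7% higher and 18.1% lower. The count of higher calls was thus close to the background, while that of lower calls was above it. The lists were chosen with earlier results of these data known, so these counts describe the listed genes only and were not tested.

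**Figure D5:**
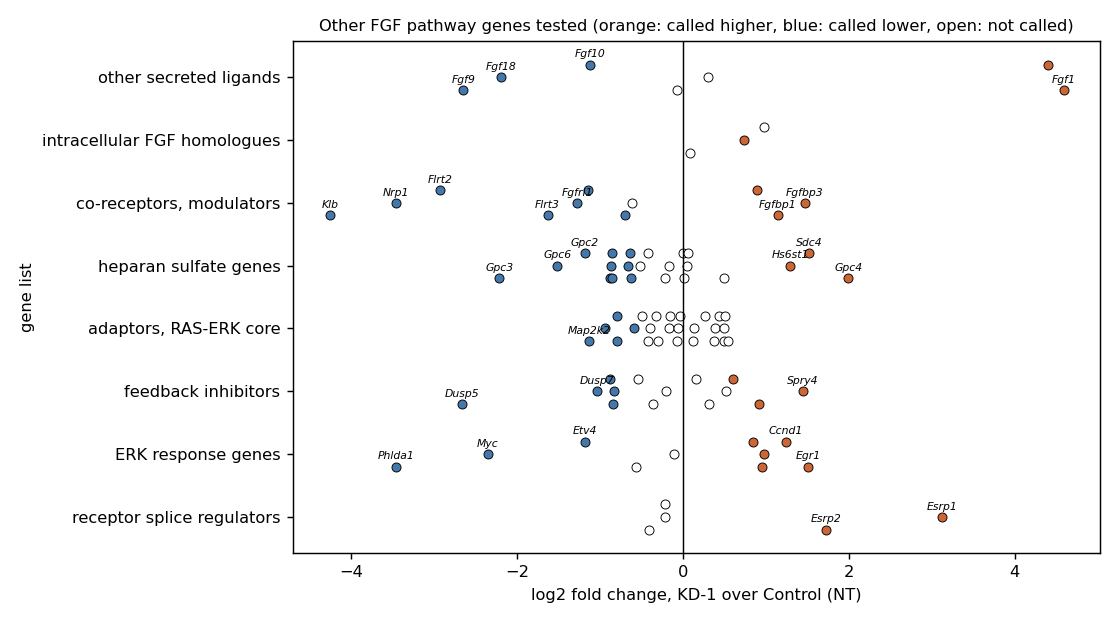
Log2 fold change of KD-1 over Control (NT) for the 97 other FGF pathway genes tested, 1 row of points per list, orange where called higher, blue where called lower and open where not called. Co-receptors and heparan sulfate genes lie mostly to the left, the RAS-ERK core stays within 1.2 of 0, and feedback and response genes lie on both sides.

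Markers of the cell types a gastruloid can hold moved with the same groups. For comparison, 19.7% of all genes tested were called higher and 18.1% lower. Naive pluripotency markers, of which 8 of 10 tested were called higher, summed to 459 to 503 CPM in Control and 1446 to 1485 CPM in KD-1, and 4 of 7 formative and primed epiblast markers were called higher (164 to 186 against 245 to 249 CPM). Neural markers (6 of 8 higher) summed to 52.8 to 60.4 CPM in Control and 250 to 254.1 CPM in KD-1, beside the rise of *Fgf15*. Somite markers (9 of 9 lower) went from 569 to 652 CPM down to 46.6 to 47.7 CPM, and presomitic markers (4 of 6 lower) from 40.6 to 49.7 to 36.2 to 37.9 CPM, beside the falls of *Fgf8* and *Fgfr1*. The presomitic sum was mostly *Dll1* (means of 33.6 and 29.8 CPM), which was not called. The 4 called lower, *Tbx6*, *Hes7*, *Mesp2* and *Dll3*, had Control means of only 0.692, 0.502, 0.755 and 3.84 CPM. Tail bud markers were called in both directions, 3 higher and 3 lower of 10. Of the endoderm markers, 3 of 8 passed the filter and 2 were called lower, *Cer1* most of all (14.6 to 0.0460 CPM). Of the cardiac markers, 2 of 7 passed the filter and 2 were called lower. Fibroblast markers, listed for the feeder cells of ESC culture (5 of 6 tested called lower), summed to 48.2 to 54.7 CPM in Control and 1.45 to 1.55 CPM in KD-1. Most of the Control sum came from *Fap* (mean 27.9 CPM) and *Pdgfrb* (15.3 CPM). *Thy1* had the higher mean in KD-1 (0.132 against 0.451 CPM) and was not called. Among markers under the filter, *Foxa2* (2, 1 and 1 counts in Control, 6, 5 and 9 in KD-1) and *Myl7* (2, 2 and 1 against 7, 7 and 10) had higher means in KD-1. *Sox17* (4, 9 and 9 counts against 0, 0 and 1), *Dcn*, *Lum* and *Postn* had lower means. Counts this low are near the limit of detection, and the means of the other markers under the filter went both ways. The paper's single-cell data had a population labelled anterior primitive streak and definitive endoderm more represented in KD-1. The part of cell composition in the FGF values was not tested.

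The genes whose pattern over the 6 libraries was most like that of *Fgf15*, by Euclidean distance of centred log2 CPM among 14250 protein-coding genes, were *Zfp981*, *Rbm47*, *Crabp1*, *Efhd1* and *Mdfic*, at distances of 0.22 to 0.273. For *Fgfr1* they were *Hoxb3*, *Nup43*, *Smarca4*, *Mthfd1l* and *Pex3*, at 0.0568 to 0.0788. *Crabp1*, a retinoic acid binding protein, went from 25.1 to 149.9 CPM with *Fgf15*, and *Hoxb3* from 35.3 to 19.9 CPM with *Fgfr1*. With 3 libraries in each group, likeness over 6 libraries mainly reads the size of the difference between the groups.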

How the data were processed

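Bulk RNA sequencing libraries of day 5 gastruloids (3 Control (NT), 3 KD-1) were paired-end TruSeq libraries on an Illumina NextSeq. The authors quantified them with Salmon (version 1.1, per the labels) on a Gencode gene model and deposited estimated counts (expected counts) per Ensembl gene as whole numbers, without normalization, so no rounding was needed. Use of strand is not given in the sources used here. Salmon divides reads between similar sequences by probability, so near-identical or overlapping genes, *Fgfr2* with *Ctbp2* among them, are uncertain.

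Of 35565 identifiers, 35222 matched GENCODE vM39 (GRCm39), which gave names, positions and lengths. All tests used edgeR 4.0.16 (R 4.3.3): filterByExpr defaults, TMM, a robust quasi-likelihood fit of condition alone, with p-values adjusted by Benjamini-Hochberg over all 15110 genes tested. Called means an adjusted p under 0.05 and a fold change over 1.5 or under 0.667. DESeq2 1.42.0 and limma-voom (limma 3.58.1) were alternatives. The scripts were tested on simulated data. Shares were compared by exact permutation over the 6 libraries. The labels call the replicates biological, and every same-group pair differed by more than sampling noise.

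The 10 genes, the pathway and marker lists and the naming rule (the 10, 12 fixed pathway genes, the 3 largest rises and falls per list among called genes with a mean of at least 1 CPM, and 5 genes of most like pattern) were chosen with earlier results of these data known. Any other gene named belongs to a list, or the text says that its values were known when it was picked. Upstream sequences are from RefSeq on GRCm38.p6, whose coordinates do not match those of GRCm39. Protein sequences were not used here.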

Additional observations from a re-analysis of the deposited data

How the results depend on the processing

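Of the 6 FGF genes called, *Fgf4*, *Fgf5*, *Fgf15*, *Fgf17* and *Fgfr1* kept their direction and call in all 14 alternative fits and *Fgf8* in the 13 that could test it, and between 5 and 8 of the genes were called under all settings tried. *Fgf3* was called without composition normalization (log2 fold change 0.68) and with at least 10 counts in every library (0.67). *Fgfr3* was called with limma-voom (0.77), without composition normalization (0.78), with a minimum of 10 counts per library (0.76) and without the middle Control library (0.99), and ranged from 0.52 to 0.99 with 1 library left out. Genes called numbered 5704, and 3274 with an absolute log2 fold change over 1, 9597 with no fold threshold and 3763 with a test against 1.5-fold (glmTreat). Other pathway genes called numbered 52, 30 over an absolute log2 fold change of 1 and 75 with no fold threshold. Called neighbours numbered 11 within 200 kb, 6 within 100 kb and 37 within 500 kb, where more genes are counted. The share difference of *Fgf3* was -2.09 percentage points, -1.90 with the longest transcript as length and -2.35 without length scaling, and that of *Fgf8* was -12.7 and -5.95 without length scaling, since *Fgf8* has the shortest exons. No called result reversed. The share differences of *Fgf4*, *Fgf17* and *Fgfr4*, whose groups overlapped, changed sign with 1 library left out, ranging from -2.98 to 1.44, from -1.11 to 2.97 and from -0.17 to 0.05 percentage points. No paired analysis was possible because the columns carry no replicate number of the labels. Depth limits *Fgf3*, *Fgf8* and *Fgfr4*, which had 3 to 94 counts in a library. Control counts were also low for *Fgf5* (19, 38 and 42), *Fgf17* (19, 30 and 89) and *Fgfr3* (16, 59 and 67).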
